A study of Mus musculus with 4 samples.

Results

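Sst interneurons are inhibitory nerve cells of the forebrain that release GABA together with the peptide somatostatin. In these data they were taken as 238 nuclei, of 44956 nuclei that passed the quality limits and 50838 barcodes in all, selected on their own counts. A nucleus entered with at least 1000 unique molecular identifiers (UMIs, each standing for 1 captured transcript), at least 300 genes and no more than 5% of its UMIs from the mitochondrial genome. It also needed at least 2 UMIs of Gad1 and Gad2 together, the enzymes that make GABA, and at least 3 UMIs of Sst that made up at least 0.1% of its UMIs. Nuclei with any UMI of Lhx8 (a marker of cholinergic and pallidal lineages) or Vip (another interneuron peptide), or with more than 1 UMI of Slc17a7 (the cortical vesicular glutamate transporter), were left out. Of 260 nuclei that passed on Gad1, Gad2 and Sst, 9 were lost on Lhx8, 3 on Vip and 10 on Slc17a7.

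Nuclei came from whole brain without cerebellum of wild-type C57BL/6 mice aged 10 weeks, frozen on dry ice for 10 min, and were profiled with a droplet kit that reads the 3′ end of transcripts (SeekOne DD). The 4 libraries crossed 2 factors, each combination with 1 library: the brain was taken post-mortem after cervical dislocation or in vivo by craniotomy under isoflurane, and the extracted nuclei either went on unfixed or stood for 30 min in 80% methanol at -20 °C. Fixed nuclei also passed through a preservation kit before library construction, which unfixed nuclei did not. At most 50 mg of tissue entered an extraction, so the brain regions behind the nuclei are not known, and the labels do not state whether a fixed and an unfixed library share an animal. Values for the 4 libraries are given below in 1 library order: post-mortem unfixed, in vivo unfixed, post-mortem methanol and in vivo methanol.

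In the cortex most Sst interneurons contact the distal dendrites of pyramidal cells, and they arise, like Pvalb interneurons, from the medial ganglionic eminence under the transcription factors Lhx6, Sox6 and Satb1. A less common kind, found in cortex and striatum, also makes neuropeptide Y and neuronal nitric oxide synthase (Nos1), carries the substance P receptor Tacr1 and, in cortex, the lectin-like protein Chodl. The Sst gene is a classic target of cyclic AMP, through a cyclic AMP response element that binds the transcription factor CREB.

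Stretches upstream of the RefSeq gene starts (mouse build GRCm38.p6) are shown for Sst, which selected the nuclei, and for Npy and Chodl, which mark subtypes among them. The Sst stretch is chr16:23890874-23890903 on the minus strand, from 59 to 30 bases upstream of the start. The Npy stretch is chr6:49822460-49822709 and the Chodl stretch chr16:78930698-78930947, both on the plus strand and both the 250 bases before the start. Capitals mark the full cyclic AMP response element, TGACGTCA.
Sst: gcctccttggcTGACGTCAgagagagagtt
Npy: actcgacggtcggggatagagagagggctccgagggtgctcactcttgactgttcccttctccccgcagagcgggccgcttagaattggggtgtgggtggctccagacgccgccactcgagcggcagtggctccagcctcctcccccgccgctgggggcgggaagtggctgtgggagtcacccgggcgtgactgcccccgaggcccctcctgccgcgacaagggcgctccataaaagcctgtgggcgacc
Chodl: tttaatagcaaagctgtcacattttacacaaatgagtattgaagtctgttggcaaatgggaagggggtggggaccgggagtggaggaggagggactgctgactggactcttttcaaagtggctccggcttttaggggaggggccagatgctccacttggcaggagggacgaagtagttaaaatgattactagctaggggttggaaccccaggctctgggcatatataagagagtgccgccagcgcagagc
The element is its own reverse complement, so a search of 1 strand covers both. In Sst its first base lies 48 bases upstream of the start. It was not found in the 250 upstream bases of Npy, Cort, Crhbp, Nos1, Tacr1, Chodl, Trhde or Synpr. Among all RefSeq promoters 439 of 27025 (1.62%) held it in the same 250 bases. Among the genes tested between Sst and Pvalb nuclei that matched the table it was in 190 of 5700 (3.33%), and among those that were higher in Sst nuclei in 10 of 268 (3.73%). Of 16 matched neuropeptide precursor genes 2 held it, Sst among them.

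Sst nuclei were found in every library, at very different rates. There were 20 in the post-mortem unfixed, 39 in the in vivo unfixed, 99 in the post-mortem methanol and 80 in the in vivo methanol library. As a share of all nuclei that passed the quality limits this was 0.158% (95% exact Clopper-Pearson interval 0.0968 to 0.244), 0.261% (0.186 to 0.357), 0.981% (0.798 to 1.19) and 1.10% (0.871 to 1.36). As a share of the nuclei with at least 2 UMIs of Gad1 and Gad2 together it was 0.654%, 1.46%, 3.03% and 3.39%. Intervals here and below cover counting error only, and with 1 library a group the differences between these shares have no replicate check. Both shares were higher in the methanol libraries than in the unfixed ones.

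The rule itself leans on depth and on how Sst transcripts were spread over barcodes. The members' median depth was 5876, 3977, 8934 and 10262 UMIs, and their median Sst count was 9, 6, 20 and 21 UMIs, with ranges of 4 to 59, 3 to 27, 3 to 111 and 3 to 148. Just inside the rule were 6 members with 3 Sst UMIs and 5 with 4; just outside were 173 nuclei with 2 Sst UMIs and 233 with at least 3 that stayed under 0.1%. With each barcode of at least 2000 UMIs thinned to 2000 UMIs, 8, 15, 21 and 19 nuclei met the rule, or 0.0780%, 0.126%, 0.247% and 0.308%. These shares leave out 2374, 3083, 1605 and 1119 nuclei with fewer UMIs. At this depth 3 Sst UMIs always exceed 0.1%. As a share of all nuclei, the methanol libraries stayed above the unfixed ones by a smaller ratio. Of the thinned nuclei with at least 2 UMIs of Gad1 and Gad2 together, 0.772%, 1.38%, 2.58% and 3.15% met the rule. Without thinning these shares were 0.654%, 1.46%, 3.03% and 3.39%. No barcode was shared between members of different libraries, while 57 to 151 barcodes of all nuclei passing the limits were shared between pairs of libraries. Scrublet, a doublet caller, marked 0, 6, 8 and 8 of the members, which were kept.

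**Figure D1:**
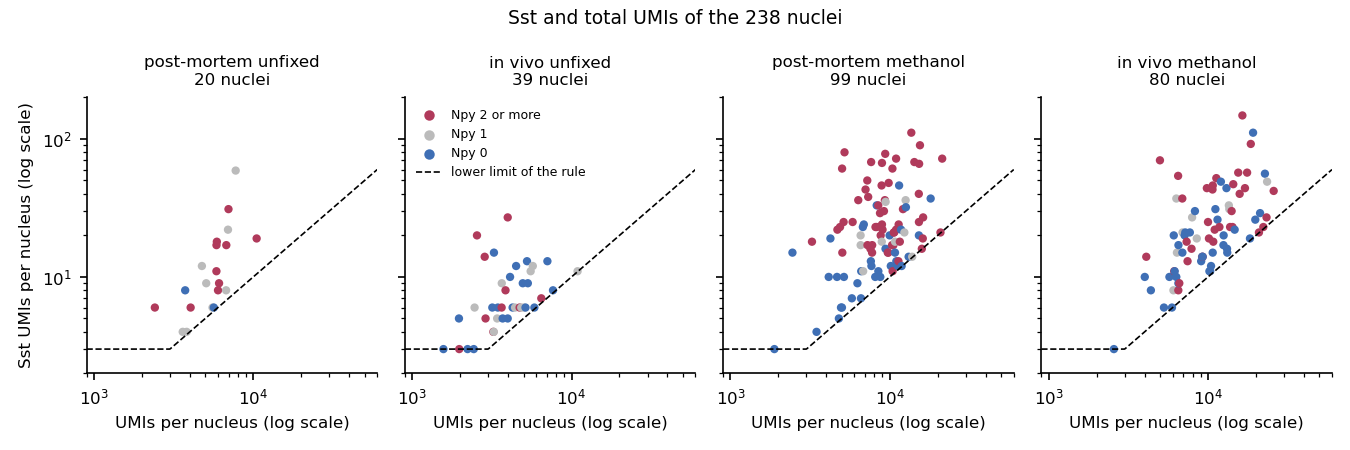
Each point is 1 of the 238 Sst nuclei, with its UMIs on the x axis and its Sst UMIs on the y axis, both on log scales, 1 panel per library. The dashed line is the lower limit of the rule. Median Sst counts were 9 and 6 in the unfixed libraries (20 and 39 nuclei), with at most 59 and 27 UMIs. In the methanol libraries (99 and 80 nuclei) the medians were 20 and 21, with at most 111 and 148. The median percent of Sst differed less, at 0.184%, 0.169%, 0.214% and 0.206% in library order. Colour gives the Npy count.

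Sst UMIs in barcodes that should lack them, a measure of free RNA, were more frequent in the unfixed libraries. Oligodendrocyte barcodes had an Sst UMI in 16.2%, 12.4%, 5.07% and 3.52% of cases, at similar median depths of 1540, 1469, 1473 and 1566 UMIs. Their Sst level was 74.3, 53.5, 24.2 and 11.1 CPM, the UMIs of a gene per 1000000 UMIs of the same nuclei. Over whole libraries the Sst level differed less, at 57.8, 53.4, 84.0 and 67.5 CPM, and the members held 8.27%, 10.0%, 38.9% and 44.7% of the Sst UMIs of all nuclei that passed the limits. The part of free RNA in the shares was not tested.

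With the rule's limits on Gad1, Gad2, Lhx8, Vip and Slc17a7 kept, a gate that ignored Sst took between 258 and 338 nuclei per library. It asked for at least 3 UMIs of Nxph1, the secreted neurexin ligand neurexophilin 1, at least 2 of Lhx6, Sox6 and Satb1 together, and at most 1 of Pvalb, and was chosen after the data were seen. In library order it took 258, 338, 329 and 274 nuclei, with median depths of 6803, 5000, 9316 and 10846 UMIs. The share of them with an Sst UMI was 39.9%, 40.5%, 42.9% and 41.6%, with overlapping counting intervals. The share with at least 3 Sst UMIs was 21.3%, 17.5%, 35.6% and 33.6%, and the Sst level was 250 (228 to 272), 252 (230 to 275), 771 (743 to 801) and 625 (600 to 652) CPM. Both were higher in the methanol libraries, with intervals of the level that did not overlap those of the unfixed libraries. The methanol nuclei of the gate were also deeper, and the part of depth in the share with at least 3 Sst UMIs was not tested. Nuclei of this gate with at least 3 Sst UMIs made up 0.435%, 0.395%, 1.16% and 1.26% of all nuclei that passed the limits. These shares put no limit on the percent of Sst. In library order 55, 59, 117 and 92 nuclei entered them, of which 17, 27, 83 and 61 were members.

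**Figure D2:**
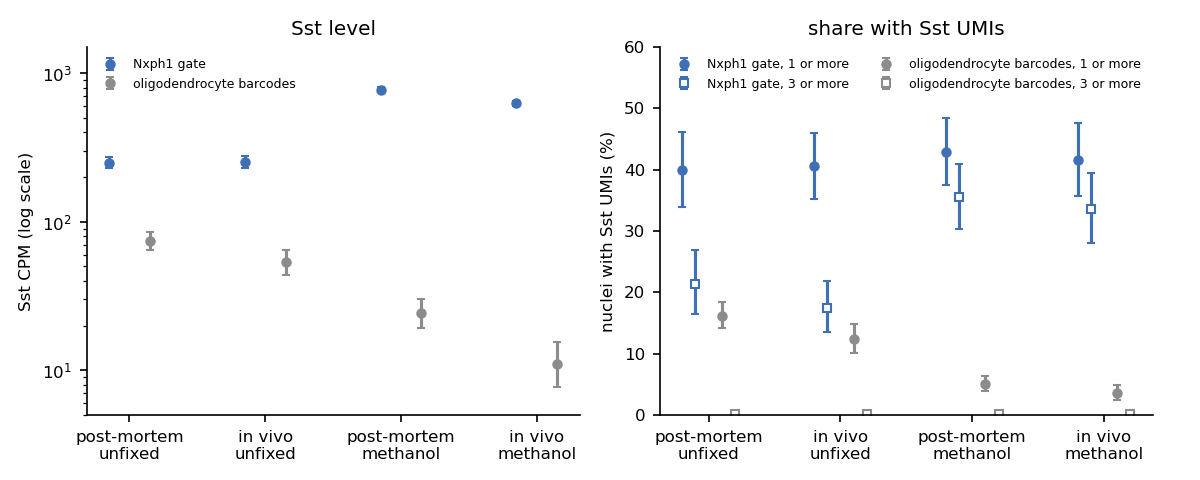
The left panel gives the Sst level in CPM (log scale) and the right panel the percent of nuclei with at least 1 (filled) or at least 3 (open) Sst UMIs, for nuclei of the Nxph1 gate and for oligodendrocyte barcodes, by library, with 95% counting intervals. The share with any Sst UMI in the gate stays between 39.9% and 42.9%. The share with at least 3 is 17.5% and 21.3% in the unfixed and 33.6% and 35.6% in the methanol libraries. The oligodendrocyte share with any Sst UMI lies between 3.52% and 16.2%. Median depths of the gate's nuclei were 6803 and 5000 UMIs in the unfixed and 9316 and 10846 in the methanol libraries, post-mortem first.

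The rule asked for Gad1 and Gad2, which were seen in 188 and 216 of the 238 nuclei. Nxph1, a label marker that the rule did not use, was seen in 220. Nxph1 gave 1516, 2136, 2617 and 2928 CPM in library order, Sox6 727, 1162, 1219.7 and 948, Satb1 280.3, 260.2, 329 and 320.2 and Lhx6 26.3, 121, 62.8 and 61.6. Markers that cortical Sst cells are known for were common too. The glutamate receptor subunit Grin3a was seen in 204 nuclei and the secreted protein Reln in 152. Elfn1, which shapes the synapses that Sst cells receive, was seen in 114. Slc32a1, the vesicular GABA transporter from the list of GABA synthesis, release and uptake, was seen in 144. Among peptide and calcium-binding genes, Npy was seen in 145 nuclei, Calb1 in 90, Penk in 68, Pdyn in 38, Cort in 25, Calb2 in 21 and Crh in 4. Nos1 was seen in 50 and Chodl in 29.

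Marker lists of other cell types were detected at different levels. Summed over a list, vascular markers gave 0 to 6.05 CPM (3 of 6 detected), cholinergic markers 6.05 to 28.0 (3 of 4, with Slc18a3 at 0 and Chat in 2 nuclei), and transcription factors of hypothalamus, thalamus and midbrain 0 to 17.5 (5 of 12). Oligodendrocyte markers gave 123 to 329 (8 of 8), excitatory markers 192 to 272 (9 of 10) and medium spiny neuron markers 924 to 1373 (10 of 10), the last mostly from Pde10a at 919.8, 1089, 698 and 915. Interneuron genes of the caudal ganglionic eminence gave 596, 224, 200 and 269 CPM (5 of 6 detected), and Vip and Lamp5 interneuron markers gave 211 to 648 (4 of 6) and 464 to 714 (6 of 6). Adarb2, which belongs to the caudal list, was seen in 48 members (20.2%), and in the post-mortem unfixed library 1 nucleus held 51 of its 53 UMIs. Pvalb was seen in 12 members and Prox1, another caudal marker, in 6. Receptors for somatostatin and cortistatin were low, at 24.9 to 35.0 CPM summed over 5 genes, with Sstr1 seen in 31 nuclei and Sstr2 in 13. The part of other cells' RNA in the results was not tested.

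Sst nuclei were compared with Pvalb nuclei, the other large class from the medial ganglionic eminence, on UMIs summed per library and class. Pvalb nuclei, with at least 2 Pvalb and at most 1 Sst UMI, numbered 35, 20, 74 and 36, with median depths of 7102, 5393, 11690 and 13148 UMIs. Of 7294 genes tested, 375 (5.14%) were higher and 273 (3.74%) lower in Sst nuclei, at an adjusted p under 0.05 and at least 2-fold. The genes of the rules were fitted but not counted. Tests are edgeR's quasi-likelihood test with Benjamini-Hochberg adjustment, with the 4 libraries as blocks. The fit held 4 classes: Sst, Pvalb, Vip and other GABA nuclei. With library as a block, its p-values measure how the class differences vary from library to library, pooled over the 4 classes. With only Sst and Pvalb nuclei in the fit the counts were 293 and 233.

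Npy (ENSMUSG00000029819, chromosome 6, 49822710 to 49829507, plus strand), the precursor of neuropeptide Y, led the genes higher in Sst nuclei. It gave 438, 345, 933 and 494 CPM in Sst nuclei and 15.0, 8.29, 12.1 and 14.0 in Pvalb nuclei, a log2 difference of 5.64 (SE 0.24, edgeR Benjamini-Hochberg adjusted p = 4.34e-21). Nos1 (ENSMUSG00000029361, chromosome 5, 117781032 to 117958840, plus strand) gave 298, 351, 157 and 174 against 15.0, 8.29, 3.29 and 5.98, a log2 difference of 4.96 (SE 0.32, edgeR Benjamini-Hochberg adjusted p = 8.40e-16). Every library showed both differences, and the classes did not overlap. Synpr, the synaptic vesicle protein synaptoporin, gave 797, 986, 816 and 788 against 22.5, 24.9, 38.4 and 43.9. Trhde, the enzyme that breaks down thyrotropin-releasing hormone, gave 1016, 823, 830.1 and 1083 against 45.1, 49.8, 57.1 and 57.8, and the membrane collagen Col25a1 gave 1034, 949.9, 683 and 900.2 against 41.3, 58.0, 36.2 and 83.8. The classes did not overlap for these 3 genes either, with log2 differences of 4.50 (SE 0.20), 4.10 (SE 0.18) and 4.02 (SE 0.23). The laminin chain Lama4 (4.73) and the growth factor Igf1 (4.61) completed the leading genes together with the axon guidance ligand Ntn1. Ntn1 rested on 84 UMIs in Sst and 2 in Pvalb nuclei, a log2 ratio of 5.17 (95% counting interval 3.27 to 8.24).

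Among the genes lower in Sst nuclei were 2 of 4 Pvalb interneuron markers tested, Syt2 and Kcnc1. Cemip, a hyaluronan-binding protein, gave 8.76, 24.2, 17.3 and 29.1 CPM in Sst and 631, 473, 528 and 381 in Pvalb nuclei, a log2 difference of -4.40 (SE 0.23, edgeR Benjamini-Hochberg adjusted p = 1.07e-18). Syt2, the fast calcium sensor of Pvalb terminals, gave 8.76, 6.05, 14.1 and 5.60 against 192, 149, 180 and 144, a log2 difference of -4.09 (SE 0.25, edgeR Benjamini-Hochberg adjusted p = 4.42e-16). Pde5a, the phosphodiesterase that breaks down cyclic GMP, gave 17.5, 6.05, 14.1 and 5.60 against 195, 116, 180 and 116. The classes did not overlap for any of these 3 genes. The others were Mypn (-4.38), Myo1e (-3.87), Fam163a (-3.49), Tll1 (-3.27) and Mybpc1, which rested on 3 UMIs in Sst and 94 in Pvalb nuclei, a log2 ratio of -5.19 (-7.49 to -3.60).

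Of a list of 14 genes known from Sst interneurons in general, 13 were higher than in Pvalb nuclei and none lower, with a median log2 difference of 2.42 against -0.01 over all genes tested. Grin3a gave 727, 1101, 964 and 829 against 86.4, 74.6, 43.9 and 108 CPM and Reln 438, 678, 543 and 635 against 60.1, 8.29, 69.2 and 35.9. Elfn1 gave 175, 199.7, 117 and 155 against 7.51, 33.2, 9.88 and 17.9, and Crhbp, the binding protein of corticotropin-releasing hormone, 105, 72.6, 134 and 106 against 3.76, 24.9, 16.5 and 21.9. The remaining member, Nxph1, passed on p but not on size, at a log2 difference of 0.47 (edgeR Benjamini-Hochberg adjusted p = 0.0354). None of 5 transcription factors of the medial ganglionic eminence reached 2-fold. Of these, 3 passed on p alone, Satb1, Sox6 and Lhx6, at 0.51, 0.47 and 0.90 on the log2 scale. Of 5 caudal ganglionic eminence genes tested 1 was higher and 1 lower, with a median log2 difference of -0.30. The higher one was Npas1 (3.92), a transcription factor also known from the globus pallidus, and the lower one was Adarb2. Of all genes tested 5.14% were higher and 3.74% lower.

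Of 16 ionotropic glutamate receptor genes 5 were higher in Sst nuclei and none lower (median log2 difference 0.34 over the 16), among them Grin3a and the kainate receptor genes Grik1 (1.38), Grik3 (2.14) and Grik4 (1.79). Of 6 metabotropic receptor genes 3 were higher and none lower (median 1.18), among them Grm7 (1.40) and Grm8 (1.54). Grm7 gave 1437, 2148, 1709.9 and 1834 CPM in Sst and 545, 821, 558 and 822 in Pvalb nuclei. The muscarinic receptor gene Chrm3 was higher too, at 1.74, among 4 acetylcholine receptor genes tested. The serotonin receptor genes Htr2c (1.41) and Htr7 (1.77) were higher among 12 genes for monoamine receptors. Of all genes tested 5.14% were higher.

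GABA-A receptor subunit genes differed in both directions, where 3.74% of all genes tested were lower and 5.14% higher. Of 12 genes 4 were lower in Sst nuclei, among them Gabrb2, Gabrg3 and Gabrd, and 2 were higher, Gabra2 and Gabrg1. Gabrd, the subunit of receptors outside synapses, gave 8.76, 12.1, 26.0 and 17.9 CPM in Sst and 161, 66.3, 198 and 73.8 in Pvalb nuclei, a log2 difference of -2.75 (SE 0.25, edgeR Benjamini-Hochberg adjusted p = 1.67e-11). Gabra2 gave 324, 188, 276 and 344 against 71.4, 99.5, 56.0 and 108, a log2 difference of 1.89 (SE 0.18, edgeR Benjamini-Hochberg adjusted p = 1.12e-10).

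Of 28 potassium and HCN channel genes 8 were lower in Sst nuclei and 2 higher (median log2 difference -0.48). Of all genes tested 3.74% were lower and 5.14% higher. Kcnc1, the fast delayed rectifier Kv3.1 that lets Pvalb cells fire at high rates, gave 166, 163, 205 and 160.1 CPM in Sst and 657, 464, 678 and 481 in Pvalb nuclei, a log2 difference of -1.68 (SE 0.15). Kcna1 (-1.65), Kcnh7 (-1.71), Kcnip2 (-2.10) and Kcnj3 (-1.21) were lower with it, and Kcnd3 (1.60) and Kcnt2 (1.81) were higher. Among the lower genes, Kcnq5 and Kcnh1 (-1.02), sat at the 2-fold limit and fell short of it without the post-mortem unfixed library. Kcnq5 also lost the call without the in vivo unfixed (-0.95) or the in vivo methanol library (-0.93), and Kcnh1 without the post-mortem methanol (-0.96) or the in vivo methanol library (-0.95). Of 20 sodium and calcium channel genes 4 were higher, led by the R-type channel gene Cacna1e at 368, 496, 427 and 536 against 60.1, 74.6, 85.6 and 122, and 2 were lower. Erbb4, the neuregulin receptor, was lower at 2102, 1373, 1421 and 2295 against 6238, 6069.5, 6553 and 7674.

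Of 9 neuropeptide precursors tested 4 were higher and none lower: Npy, Penk (1.56), Cartpt (2.82, and 2.21 without a call once doublets were removed) and Nts (1.82). Penk is also a marker of medium spiny neurons, of whose 8 tested markers it and Rgs9 were higher, Rgs9 without a call once the in vivo unfixed library was left out. Of 16 genes of peptide processing 4 were higher and none lower, with the granin-like Vgf at 131, 163, 238 and 148 against 22.5, 24.9, 52.7 and 57.8 CPM and the vesicle protein Rab3b at 210.2, 182, 168 and 161 against 45.1, 91.2, 37.3 and 63.8. Of 10 activity-induced genes 7 were higher and none lower, among them Btg2 (2.58), Junb (2.64) and Egr1 (1.72). Of all genes tested 5.14% were higher. Fos, the immediate-early transcription factor, gave 0, 54.5, 23.8 and 53.7 against 15.0, 8.29, 2.20 and 7.98 CPM and was higher in 3 of 4 libraries.

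**Figure D3:**
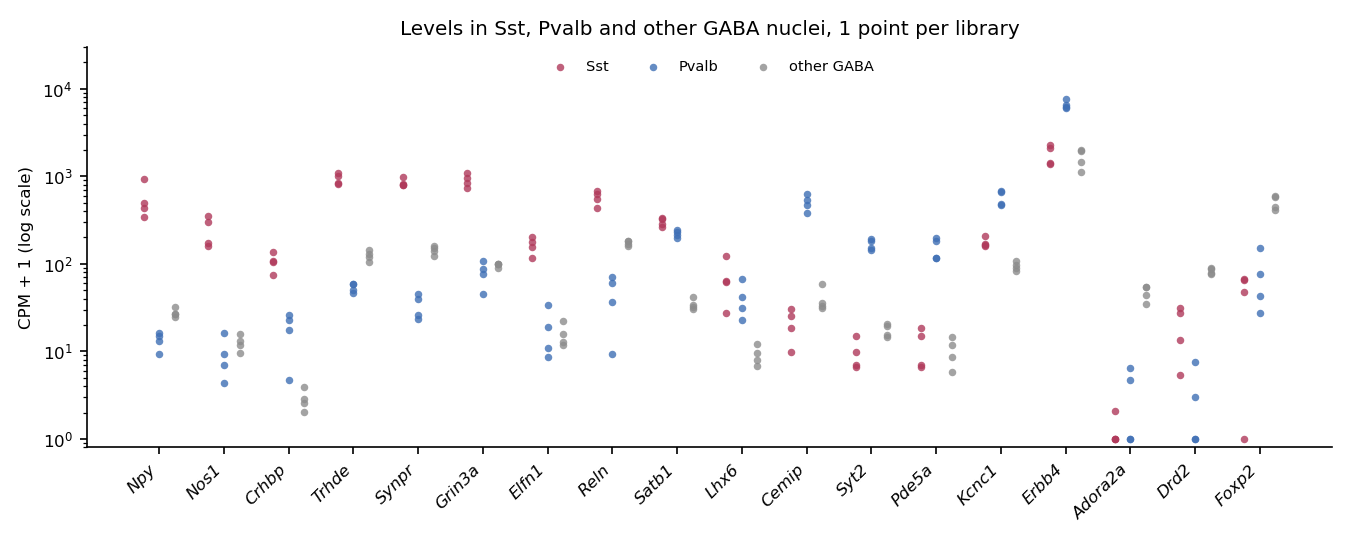
CPM plus 1 (log scale) of 18 genes in Sst, Pvalb and other GABA nuclei, 1 point per library and class. Npy, Nos1, Trhde, Synpr and Grin3a lie higher in Sst nuclei than in both other classes in every library, Satb1 lies less than 2-fold above Pvalb nuclei, and Cemip, Syt2, Pde5a, Kcnc1 and Erbb4 lie lower in Sst than in Pvalb nuclei.

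The second comparison set Sst nuclei against 2161, 2001, 2324 and 1603 other GABA nuclei, which had no UMI of Sst, Vip or Pvalb. Markers of striatal medium spiny neurons summed to 2788 to 3673 CPM in them. Of 7294 genes, 258 (3.54%) were higher and 373 (5.11%) lower in Sst nuclei by the same edgeR test. Both comparisons use the same Sst nuclei, so their values are given separately. With only these 2 classes in the fit the counts were 469 and 776.

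Crhbp (ENSMUSG00000021680, chromosome 13, 95431371 to 95444924, minus strand) gave 105, 72.6, 134 and 106 CPM in Sst nuclei and 1.05, 2.88, 1.60 and 1.89 in the other GABA nuclei, the largest log2 difference of the named higher genes, at 5.86 (SE 0.28, edgeR Benjamini-Hochberg adjusted p = 4.30e-19). Npy gave 25.8, 23.5, 30.8 and 25.9 in the other GABA nuclei, a log2 difference of 4.36 (SE 0.15, edgeR Benjamini-Hochberg adjusted p = 4.39e-25), and Nos1 gave 10.9, 14.9, 8.54 and 12, a difference of 4.24. Other leading genes were Lama4 (4.28), the serine protease Masp1 (4.26), the retinol carrier Rbp4 (3.82), the transcriptional coactivator Eya4 (3.81) and Nxph2 (3.64), a relative of Nxph1. In each of the 4 libraries Sst nuclei were above the other GABA nuclei for all 8.

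Here the developmental regulators separated the classes. All 5 transcription factors of the medial ganglionic eminence that were tested were higher in Sst nuclei. Sox6 gave 727, 1162, 1219.7 and 948 against 97.8, 118, 105 and 101 CPM, a log2 difference of 3.24 (SE 0.17), and Satb1 280.3, 260.2, 329 and 320.2 against 32.7, 41.2, 29.4 and 30.8, a difference of 3.21 (SE 0.15). Lhx6 (3.15) and Maf (2.92) were close to these. Of 5 caudal ganglionic eminence genes tested 1 was higher, Npas1, and 2 were lower, Adarb2 and Prox1. Of 7 striatal transcription factors 6 were lower, with Foxp2 at 0, 66.6, 64.9 and 47.0 against 439.9, 409.5, 576 and 589.5 and Meis2 at 35.0, 145, 169.9 and 178 against 1034, 1082, 879.7 and 1092. All 8 medium spiny neuron markers tested were lower, among them the dopamine receptor genes Drd1 (-2.30) and Drd2 (-2.86) and Ppp1r1b (-3.75), which encodes the phosphoprotein DARPP-32. Adora2a, the adenosine receptor gene of striatopallidal neurons, had 1 UMI in Sst nuclei and 2625 in the others, a log2 ratio of -6.64 (-11.94 to -4.16). Car12, a carbonic anhydrase gene, had 1 and 1788 UMIs, a log2 ratio of -6.08 (-11.39 to -3.60). The other leading lower genes were Mhrt (-5.29), a transcript antisense to Myh7 whose counts cannot be told apart from it without strand, Sh3rf2 (-4.99), Drd3 (-4.21), Prkch (-4.14), Acvr1c (-4.11) and Scn4b (-3.98).

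Of the 14 general Sst interneuron genes 12 were also higher than in the other GABA nuclei, with a median log2 difference of 2.47 against 0.02 over all genes. Trhde gave 103, 127, 119 and 142 CPM in the other GABA nuclei and Elfn1 11.7, 21.4, 10.9 and 15.0, at log2 differences of 2.90 and 3.39. Potassium channel genes went both ways, with 4 of 28 higher and 6 lower, beside 3.54% and 5.11% of all genes tested. Kcnmb2 (2.72), Kcnc2 (2.31) and the channel-interacting protein gene Kcnip1 (1.52) were higher, and the M-current gene Kcnq5 was lower at 254, 248, 412 and 383 against 2166, 2200.4, 2242 and 2510.4 CPM. Kcna2, the remaining higher gene, fell below 2-fold without the post-mortem methanol library (0.92). Of 10 activity-induced genes only Vgf was higher and none lower (median log2 difference 0.20), where 7 were higher against Pvalb nuclei. Of 9 neuropeptide precursors 1 was higher, Npy, and 4 were lower: Penk, Tac1, Tac2 and Cck. Penk was thus higher than in Pvalb nuclei and lower than in the other GABA nuclei. Of 12 monoamine receptor genes none was higher and 5 were lower, among them Htr2c, which was higher against Pvalb nuclei. Of 6 metabotropic glutamate receptor genes none was higher and 1 lower (median log2 difference -0.60). Of 12 GABA-A subunit genes none was higher and 3 lower (median -0.68), and of 16 ionotropic glutamate receptor genes 3 were higher and none lower (median 0.24). The muscarinic receptor genes Chrm3 (1.81) and Chrm2 (1.5) were higher and Chrm1 (-1.04) lower, the last at -0.93 without the post-mortem unfixed library. Of 7 genes of nitric oxide signalling Nos1 was higher and 2 subunit genes of the nitric oxide receptor guanylate cyclase were lower, Gucy1a1 (-2.06) and Gucy1b1 (-1.09), the latter at -0.90 without the in vivo methanol library. Vip nuclei numbered 5, 12, 24 and 17, too few for a test by the limit of 20 nuclei a library that was set for classes and was not applied to the Npy split below.

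Within Sst nuclei, those with Npy had more Nos1, Crhbp and Tacr1 than those without, and less Tafa1, Gabrg3 and Nlgn1. There were 10, 10, 55 and 34 nuclei with at least 2 Npy UMIs and 2, 19, 35 and 37 with none. The 8, 10, 9 and 9 nuclei with 1 UMI were set aside. Nuclei with Npy were deeper in some libraries, with median UMIs of 5959, 3438, 9316 and 10900 against 4698, 4115, 7673 and 9257, and had a higher share of Sst in the methanol libraries, at 0.298% and 0.229% against 0.156% and 0.158%. Of 3523 genes tested on summed UMIs, 22 (0.624%) were higher and 17 (0.483%) lower in nuclei with Npy. The counts rested on the methanol libraries: they were 6 and 2 without the post-mortem methanol library and 8 and 6 without the in vivo methanol library. DESeq2 called 10 and 4. In the post-mortem unfixed library the nuclei without Npy were only 2.

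Nos1 gave the largest difference of the named genes, at 546, 1576, 261 and 360 CPM in nuclei with Npy and 0, 12.5, 3.51 and 7.87 in those without, a log2 difference of 5.99 (SE 0.37, edgeR Benjamini-Hochberg adjusted p = 1.22e-11). Crhbp gave 165, 166, 211 and 195 against 0, 37.6, 14.0 and 26.2, a difference of 3.14 (SE 0.34, edgeR Benjamini-Hochberg adjusted p = 9.92e-07). Tacr1 gave 82.7, 553, 181 and 150.2 against 0, 50.1, 17.5 and 31.5, a difference of 2.86 (SE 0.32, edgeR Benjamini-Hochberg adjusted p = 1.91e-06). For all 3 genes nuclei with Npy were higher in each library. The bicarbonate transporter gene Slc4a4 (1.96), Cpne4 (1.92), the long non-coding RNA Sox2ot (1.85), Col25a1 (1.62) and the calmodulin regulator Pcp4 (1.67) were higher too. Pcp4 lost its call without the post-mortem unfixed library, at 1.63 on the log2 scale. Sox2ot was abundant in both, at 2463, 6251, 2789.6 and 2904 against 426, 1377, 957 and 1039 CPM.

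Nuclei without Npy had more Tafa1, a secreted chemokine-like protein, at 0, 200.3, 112 and 627 CPM against 16.5, 55.3, 20 and 71.5, a log2 difference of -2.82 (SE 0.30, edgeR Benjamini-Hochberg adjusted p = 8.15e-07). It was lower with Npy in 3 libraries, while the 2 post-mortem unfixed nuclei without Npy had no Tafa1 UMI. The GABA-A subunit gene Gabrg3 gave 745, 1064, 1083 and 1144 against 198, 277, 407 and 410.1, and the neurexin ligand Nlgn1 2448, 1753, 2047 and 2152 against 645, 608, 1089 and 1225. Both were lower with Npy in all 4 libraries, by log2 differences of -1.52 (SE 0.23) and -1.09 (SE 0.23). Nlgn1 lost its call without the in vivo unfixed library (-0.93) and without the post-mortem methanol library (-1.32). Zfhx3 (-1.87), Htr2c (-1.65), Adarb2 (-1.65) and Vat1l (-1.41) were lower as well, Htr2c without a call when the post-mortem unfixed library was left out (-1.68). Of 13 tested genes that mark Sst interneurons in general only Crhbp was called between these nuclei. Of all genes tested just 0.624% were higher and 0.483% lower, so the lack of other calls does not set this list apart. Grin3a was at -0.08 (edgeR Benjamini-Hochberg adjusted p = 0.995) and Elfn1 at 0.14 (edgeR Benjamini-Hochberg adjusted p = 0.966).

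**Figure D4:**
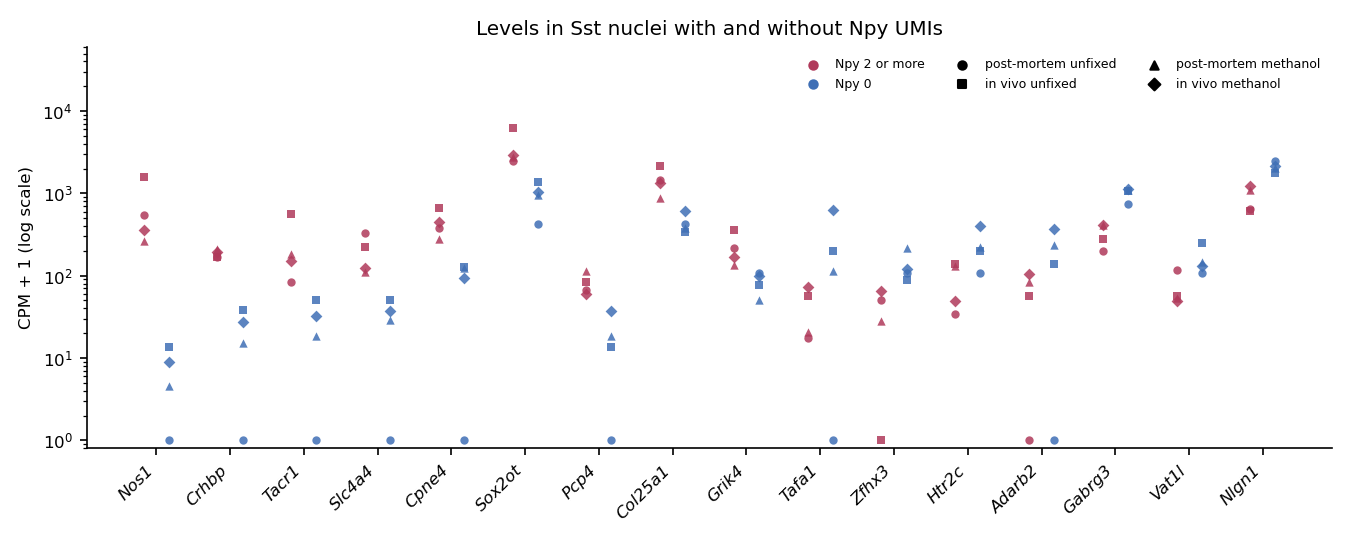
CPM plus 1 (log scale) of 16 genes in Sst nuclei with at least 2 Npy UMIs and with none, 1 point per library, the marker giving the library. Nos1, Crhbp, Tacr1 and Cpne4 lie higher with Npy in every library, and Gabrg3 and Nlgn1 lower. The post-mortem unfixed points without Npy stand for 2 nuclei.

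Nos1 was held by few nuclei. Of 392 Nos1 UMIs, 369 came from 32 nuclei with at least 3 each, 2, 6, 15 and 9 in library order, and 188 nuclei had none. All 32 had Npy, against 52.7% of the nuclei without Nos1. Of the 32, 20 (62.5%) had Chodl and 26 (81.3%) had Tacr1, against 4.26% and 7.98% of the nuclei without Nos1. Reln was seen in 5 of the 32 (15.6%) and in 138 of the 188 (73.4%). The groups had similar median depths of 7237 and 7749 UMIs. These shares are counts of nuclei, which are not replicates, and this grouping was chosen after the values were seen. In each library the share with Chodl was higher and the share with Reln lower in the nuclei with at least 3 Nos1 UMIs. Over all members, Chodl nuclei had Nos1 in 21 of 29 cases (72.4%) and other nuclei in 29 of 209 (13.9%). Cort, which encodes the related peptide cortistatin, was seen in 22 of 145 nuclei with Npy and in 3 of 93 without.

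The study set methanol fixation against no fixation, which here means ratios within 2 pairs of libraries, with no replicate of any group. A gene was taken to stand apart where its level differed at least 2-fold in the same direction in both pairs. Of 6435 genes with enough UMIs, 55 (0.855%) stood apart as higher and 70 (1.09%) as lower with methanol in Sst nuclei. Both counting intervals excluded no change for 13 and 28 of them. The split between higher and lower turned on the counts added to each gene, being 7 and 135 with 2 counts added in place of 0.5. An edgeR fit of harvest and fixation together on the 4 sums, with 1 residual degree of freedom and added after the values were seen, called 10 genes higher and 15 lower with methanol at a Benjamini-Hochberg adjusted p under 0.05 and at least 2-fold. Of these, 8 and 14 were among the genes that stood apart. Log2 ratios are given for the post-mortem pair and then the in vivo pair, each with its 95% counting interval, after 0.5 counts were added. The unfixed sums came from 20 and 39 nuclei, and the 8 leading higher genes rested on 1 to 4 unfixed UMIs in each library.

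The ATP synthase subunit genes Atp5g1 and Atp5g3 were at 1.82 (0.23 to 5.21) and 1.60 (0.19 to 4.13), and at 1.52 (0.14 to 4.05) and 2.34 (0.75 to 5.73). Atp5g3 had 3, 2, 81 and 68 UMIs in library order, and the cytochrome oxidase gene Cox8a had 3, 4, 82 and 68, at ratios of 1.54 (0.16 to 4.06) and 1.49 (0.23 to 3.57). Atp5g1 and Atp5g3 were above 0 in the other GABA nuclei too, at 0.80 and 1.05, and at 1.13 and 1.30. Bmyc, Frmd6, Med23, Fndc10 and Sec22b stood apart on 1 or 2 unfixed UMIs per library, and at least 1 interval of each included no change. Of 43 genes for cytosolic ribosomal proteins 19 were higher in both pairs and 5 lower, with median log2 ratios of 0.20 and 0.55 against -0.08 and -0.05 over all genes. In both pairs 23.3% of all genes lay above 0 and 32.5% below it. Only Rpl31 and Rpl18 among them stood apart.

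The lower genes included AY036118, a transcript from the ribosomal DNA repeat region, with 709.6, 647, 185 and 106 CPM in library order and ratios of -1.94 (-2.33 to -1.54) and -2.60 (-3.02 to -2.19). Epo gave 131, 115, 33.5 and 26.9, at -1.99 (-2.90 to -0.97) and -2.10 (-3.03 to -1.15). Epo overlaps Gigyf1 on the opposite strand, and AY036118 also has a gene opposite it. In the fit of both factors AY036118 and Epo were lower with methanol, at log2 differences of -2.24 (SE 0.21, edgeR Benjamini-Hochberg adjusted p = 1.19e-22) and -2.01 (SE 0.38, edgeR Benjamini-Hochberg adjusted p = 0.000124). Whether the counting used strand is not given in the sources used here, so reads of such pairs cannot be told apart. The same holds for Nos1, Bmyc, Stx4a, Ubxn11, Baiap3, Mrps18a and Macrod1. Stx1a, a SNARE protein gene of transmitter release with no such partner, was at -1.52 (-2.97 to 0.38) and -1.59 (-2.64 to -0.41). Without genes that overlap on the opposite strand 30 higher and 26 lower genes were left. Of all 6435 genes 52.0% have such an overlap. AY036118 was at -1.82 and -2.12, Epo at -1.62 and -1.67 and Macrod1 at -1.58 and -1.37 in the other GABA nuclei.

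Of 39 genes that define Sst subtypes 12 were measured. With methanol 2 of these were higher in both pairs and 5 lower (median log2 ratios -0.59 and 0.00). Nos1 was at -0.94 (-1.47 to -0.34) and -1.02 (-1.46 to -0.55), and 5 of 6 nitric oxide signalling genes were lower in both pairs (median log2 ratios -0.14 and -0.38, beside -0.08 and -0.05 over all genes, of which 32.5% were lower in both). Npy was at 1.08 (0.68 to 1.53) and 0.51 (0.12 to 0.94). In the fit of both factors Nos1 was at -0.96 (SE 0.24, edgeR Benjamini-Hochberg adjusted p = 0.0158) and Npy at 0.82 (SE 0.21, edgeR Benjamini-Hochberg adjusted p = 0.0158), both past the threshold on p and short of 2-fold. The share of members with at least 2 Npy UMIs was 50.0%, 25.6%, 55.6% and 42.5%, which was higher with methanol in both pairs. Of 5 mitochondrially encoded transcripts 4 were lower in both pairs, beside the same 32.5% of all genes, and none higher. mt-Cytb was at -2.19 (-3.13 to -1.15) and -0.72 (-1.57 to 0.29). The share of free RNA and the depth differed between the same libraries, and their part was not tested.

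Harvest in vivo was set against harvest post-mortem in the unfixed and in the methanol pair. Of the 6435 genes 22 (0.342%) stood apart as higher and 9 (0.14%) as lower in vivo, and both intervals excluded no change for 7 and 5. In each pair the harvest cannot be told apart from the animal. Ratios are given for the unfixed pair and then the methanol pair. Of the 22, 4 were at 0 in a library, and 1 of these kept a 2-fold difference against a bound of 3 counts. Of the 22 higher genes 14 and of the 9 lower genes 4 overlap a gene on the opposite strand, Tafa1 among them. Of all 6435 genes 52.0% have such an overlap. The counts were 8 and 5 without such genes. The counts were 13 and 7 with doublets removed. Their order turned with the stricter limit of 5 Sst UMIs and 0.2%, at 7 and 16, and with nuclei weighted equally, at 16 and 20. The edgeR fit of both factors called 15 genes higher and 7 lower in vivo, of which 9 and 2 were among those that stood apart.

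Tafa1 (ENSMUSG00000059187, chromosome 6, 96113154 to 96657198, plus strand) led, with 2, 18, 45 and 305 UMIs in library order, or 17.5, 109, 48.7 and 341 CPM. Its log2 ratios were 2.35 (0.57 to 5.79) and 2.80 (2.35 to 3.30), and the fit of both factors gave 2.79 (SE 0.29, edgeR Benjamini-Hochberg adjusted p = 4.89e-18). In the in vivo methanol library 22 of 80 nuclei had Tafa1 and 1 nucleus held 124 of the 305 UMIs. The gene also separated nuclei by Npy, and in the methanol pair it was higher in vivo both in nuclei without Npy, at 2.46 (1.95 to 3.06), and in those with at least 2 Npy UMIs, at 1.80 (0.80 to 2.99). In the other GABA nuclei it was at 1.36 and 1.05. With a stricter limit of 5 Sst UMIs and 0.2%, which left 9 and 12 unfixed nuclei, the smaller of its ratios was -0.52. Il1rapl2, a synaptic adhesion gene linked to the interleukin 1 receptor family, was at 1.24 (0.45 to 2.17) and 1.17 (0.97 to 1.37) and turned to -0.58 under the same limit. It was at 0.11 and -0.01 in the other GABA nuclei. The axon guidance ligand Slit3 was at 1.98 (0.96 to 3.34) and 1.12 (0.71 to 1.56), and the glycosyltransferase gene Galnt18 at 1.36 (0.01 to 3.24) and 1.35 (0.81 to 1.94). In the methanol pair Slit3 was at 1.25 (0.64 to 1.93) in nuclei without Npy and at 0.39 (-0.28 to 1.06) in those with at least 2 Npy UMIs, and Galnt18 at 2.59 (1.55 to 4.06) and 0.53 (-0.24 to 1.31). Of the 15 genes named for harvest, 11 fell short of 2-fold and 1 reversed in the nuclei with Npy of this pair. In the nuclei without Npy 12 kept 2-fold and 3 fell short of it. Papss1 had 0, 8, 18 and 42 UMIs, at least 1.84-fold higher in the unfixed pair, with a log2 ratio of 1.25 (0.44 to 2.16) in the methanol pair. Kcnn3, a calcium-activated potassium channel gene, had 0, 5, 12 and 35 UMIs.

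Of 12 activity-induced genes measured, 8 were higher in vivo in both pairs and none lower in both, beside 24.7% and 29.1% of all genes, with median log2 ratios of 1.19 and 0.67 against -0.04 and -0.01 over all genes. With Fos at its bound the first median was 1.10. Fos had 0, 9, 22 and 48 UMIs in library order, which was at least 2.07-fold higher in the unfixed pair, with a log2 ratio of 1.16 (0.42 to 1.97) in the methanol pair. Dusp1, a MAP kinase phosphatase whose gene overlaps Ergic1 on the opposite strand, was at 1.34 (-1.37 to 7.35) and 1.15 (0.31 to 2.09). These were the 2 members that stood apart, and in the fit of both factors neither was called, at 1.41 (SE 0.42, edgeR Benjamini-Hochberg adjusted p = 0.0857) and 1.22 (SE 0.49, edgeR Benjamini-Hochberg adjusted p = 0.402). Btg2 was at 1.51 (0.03 to 3.66) and 0.68 (0.14 to 1.24), Homer1 at 1.15 (0.09 to 2.46) and 0.63 (0.27 to 1.01), and Junb at 1.23 (-0.86 to 4.74) and 0.89 (0.33 to 1.49). Jun and Vgf were not higher in both: Jun was at -2.46 (-5.95 to -0.43) and 0.05 (-0.90 to 0.99), and Vgf at 0.29 (-0.65 to 1.33) and -0.69 (-1.01 to -0.37).

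Summed over the 26 genes of the list, the level in Sst nuclei was 587 CPM post-mortem and 902 in vivo in the unfixed pair and 738 and 1003 in the methanol pair. The same sum was 225 and 315, and 262 and 391, in Pvalb nuclei, 549 and 631, and 672 and 759, in the other GABA nuclei, and 372 and 676, and 307 and 627, in oligodendrocyte barcodes. It was 613 and 1430, and 566 and 1287, in the few Vip nuclei, so it was higher in vivo in both pairs in each of these 5 classes. In the methanol pair the Fos ratio was 1.29 (0.33 to 2.45) in nuclei without Npy and -0.43 (-2.20 to 1.08) in nuclei with at least 2 Npy UMIs. Junb was at 0.90 (0.16 to 1.72) and -0.17 (-1.38 to 0.94). The intervals overlapped, and the difference between the subtypes was not tested. In the other GABA nuclei Fos was at 0.20 and 0.34. Of 5 metabotropic glutamate receptor genes 4 were higher in vivo in both pairs and none lower, beside 24.7% of all genes higher in both. Their median log2 ratios were 0.58 and 0.48, against -0.04 and -0.01 over all genes, with Grm5 at 0.34 (0.06 to 0.64) and 0.48 (0.38 to 0.58). Npy was lower, at -0.35 (-0.92 to 0.23) and -0.92 (-1.09 to -0.75), and at -0.72 (SE 0.20, edgeR Benjamini-Hochberg adjusted p = 0.038) in the fit of both factors.

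The genes lower in vivo rested on few UMIs. Stac2 had 9, 3, 36 and 14 UMIs in library order, at -1.97 (-4.64 to -0.12) and -1.28 (-2.32 to -0.39). In the other GABA nuclei Stac2 went the other way, at 1.04 and 1.34, a contrast that was not tested. P3h2, a collagen-modifying enzyme, was at -2.12 (-4.77 to -0.31) and -1.08 (-1.76 to -0.45), and Ass1, the urea cycle enzyme that also feeds nitric oxide synthesis with arginine, at -2.65 (-8.64 to -0.08) and -1.26 (-2.34 to -0.33). Lrrtm1, Cthrc1 and Btf3l4 had an unfixed interval that included no change. Arhgap15 had 4, 0, 36 and 15 UMIs, at least 1.93-fold lower in the unfixed pair, with a log2 ratio of -1.19 (-2.19 to -0.31) in the methanol pair. The 2 remaining genes, 1 of them Y-linked, are not named.

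**Figure D5:**
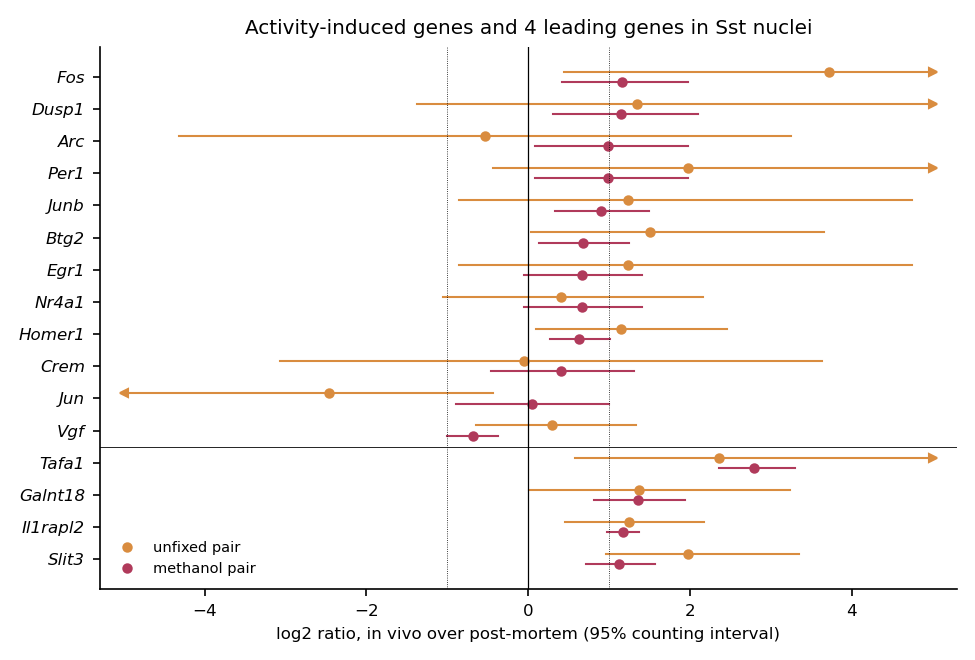
Log2 ratios of in vivo over post-mortem in Sst nuclei, with 95% counting intervals, for the 12 measured activity-induced genes and 4 of the leading genes, in the unfixed and the methanol pair. Arrows mark intervals that run past 5 in either direction, and the Fos point of the unfixed pair has 0 post-mortem UMIs and 0.5 counts added. Of the activity-induced genes 8 lie above 0 in both pairs, the unfixed intervals being the wider ones.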

How the data were processed

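Single-nucleus RNA-seq counts were analysed for 4 libraries, 1 per group. The deposited matrices hold unnormalised UMI counts of 32285 genes per barcode; per the submitters' processing notes the build was mm10, and the aligner, its settings and the use of strand are not given in the sources used here. Library totals were 64312917, 65591829, 82408017 and 75023578 UMIs in library order, and members' sums 114152, 165275, 924010 and 893160. The members and gene lists were chosen with earlier results of these data known.

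Counts were summed per class and library. Class differences were tested with edgeR 4.0.16 (R 4.3.3; TMM factors, quasi-likelihood test, library as block, Benjamini-Hochberg adjustment) over 16 sums of 4 classes, or 8 sums for the Npy split. Genes used by a class rule were never called. The labels do not say that libraries came from separate animals, so these p-values measure only how class differences vary between these libraries. Methanol and harvest ratios were computed on summed counts scaled to 1000000 UMIs (CPM), for genes with a mean of at least 20 CPM and at least 50 UMIs, with exact conditional 95% intervals. UMIs are counted molecules, and intervals leave out variation between animals and nuclei.

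Named genes were the 8 per direction with the largest difference among those called, with at least 50 UMIs in the higher class and 1 direction in all libraries (judged after 0.5 counts were added, through which alone Tafa1, Vat1l and Adarb2 met it in the post-mortem unfixed library), the 8 per direction with the largest smaller ratio, and members of the lists. Predicted, Xist, Tsix and Y-linked genes were not named, and a few list members are not reported here. Doublets were marked with Scrublet (scanpy 1.11.5, assumed rate 6%) and removed in an alternative only, with 13.0%, 15.0%, 9.94% and 11.5% of nuclei marked. Gene positions are from GENCODE on GRCm38, which matched 32158 gene identifiers. 12575 of these overlap a gene on the opposite strand. Alternatives covered DESeq2 1.42.0, scaling, filters, doublets, the selection rule and leaving out each library. After the values were seen, harvest and fixation were also fitted together with edgeR on the 4 Sst sums, taking their effects to add, with 1 residual degree of freedom. The edgeR steps were tested on simulated data.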

Additional observations from a re-analysis of the deposited data

Results flagged for a closer look

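For 8 genes of the lists the methanol ratio in Sst nuclei had opposite signs in the post-mortem and the in vivo pair, and for 9 the harvest ratio had opposite signs in the unfixed and the methanol pair, with both counting intervals away from 0. The differences between pairs have no replicate and were not tested, and a gene can appear in both sets because the same 4 values enter both.

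Adarb2, an RNA-editing family gene of caudal ganglionic eminence interneurons, was at -1.92 and 1.13 (log2 methanol ratios, post-mortem and in vivo pair) and at -2.32 and 0.73 for harvest (unfixed and methanol pair). It had 53, 15, 114 and 183 UMIs in library order, and in the post-mortem unfixed library 1 of 20 nuclei held 51 of the 53. Tacr1 was at 1.24 and -0.81 with methanol, on 5, 24, 105 and 75 UMIs. Erbb4 was at -0.57 and 0.74 with methanol and at -0.61 and 0.69 for harvest.

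The transcription factor Sox6 was at 0.74 and -0.30 with methanol and at 0.67 and -0.36 for harvest. Among glutamate receptor genes Grik1 was at -0.73 and 0.19 with methanol and at -0.43 and 0.49 for harvest, and Grin3a at 0.40 and -0.41 with methanol and at 0.59 and -0.22 for harvest. Grm7 was at 0.25 and -0.23 with methanol. The potassium channel gene Kcnc2 was at -0.27 and 0.50 with methanol and at -0.47 and 0.31 for harvest. For harvest alone, Gabra2 was at -0.79 and 0.32, the synaptic adhesion gene Lrrtm4 at -0.29 and 0.13, and the long non-coding RNA Meg3 at -0.10 and 0.15.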

How the results depend on the processing

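The rarity of Sst nuclei in the unfixed libraries (20 and 39) limits every ratio that uses them, and no group has a replicate. No paired analysis was possible because the labels give no replicate numbers that are shared. Fixation and harvest were tested only in the edgeR fit of both factors on the 4 sums, which has 1 residual degree of freedom, takes the effects to add and leans on a spread shared across genes. It was added after seeing the data and called 10 genes higher and 15 lower with methanol, and 15 higher and 7 lower in vivo. Causes of the changes below were not tested, except where a setting tests other genes or fewer nuclei.

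The shares of Sst nuclei, in library order, were 0.0713%, 0.0803%, 0.555% and 0.562% with at least 5 Sst UMIs and 0.2%, and 0.0780%, 0.126%, 0.247% and 0.308% after thinning. With the Nxph1 gate, added after seeing the data, the unfixed shares were 0.435% and 0.395%. Against Pvalb nuclei, 571 genes were higher and 417 lower without the filter on low counts. Against other GABA nuclei the counts were 421 and 972 without it, and 469 and 776 in a fit of 2 classes. Leaving out each library in turn gave 253 to 476 higher and 205 to 335 lower genes against Pvalb nuclei, and 189 to 362 and 265 to 502 against other GABA nuclei. For the Npy split, leaving out a library gave 6 to 30 higher and 2 to 21 lower, DESeq2 gave 10 and 4, and 34 were lower without the filter.

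Methanol counts were 7 higher and 135 lower with 2 counts added, a setting that also shifted the median of all genes to -0.32 and -0.21, and 30 and 26 without opposite-strand genes. Genes higher in vivo numbered 13 with doublets removed, 7 with the stricter Sst limit, 12 with 2 counts added and 8 without opposite-strand genes. Genes lower in vivo numbered 16 with the stricter limit, 20 with nuclei weighted equally and 5 without opposite-strand genes. Under the stricter limit Il1rapl2 turned to -0.58 and Tafa1 to -0.52, and Fos was at -0.43 in nuclei with Npy of the methanol pair, a split added after seeing the data. Of the values for single genes under all alternatives, 800 kept their call and 43 lost it against Pvalb nuclei, 960 and 36 against other GABA nuclei, and 136 and 19 in the Npy split. None of these reversed. Genes that an alternative did not test were not counted. In the Npy split this left 8 kept and 1 lost without the in vivo methanol library, and 6 and 3 without the post-mortem methanol library. Among genes named for harvest, 99 values kept 2-fold, 25 fell short and 3 reversed. For methanol 94 kept it and 11 fell short.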
